A study of Mus musculus with 16 samples.

Results

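The response of the colon to dextran sulfate sodium (DSS), a sulfated polysaccharide that injures the colon lining, was measured in mice born by cesarean section (CS). The CON_CS group drank normal water and the DSS_CS group drank water with 3% DSS for 8 days, with 4 RNA-seq libraries in each. Described here are the 14372 genes, of 39328 in the deposited table, with at least 1 FPKM in at least 4 of these 8 libraries. FPKM is the number of sequenced fragments of a gene divided by its length and by the yield of the library. All mice were adult wild-type ICR mice, an outbred stock, and total RNA came from the colon. Vaginally born (VD) mice formed 2 further groups of 4 libraries, CON_VD on normal water and DSS_VD on 3% DSS for the same time, and serve below only for comparison. The labels do not give the mice's sex, age in weeks or litter, the segment or layers of colon taken, or whether each library was a separate mouse, so p-values measure the spread between these samples, which may be technical. The series title names colitis susceptibility after cesarean birth and group 3 innate lymphoid cells (ILC3).

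The FPKM of a library summed to between 280135 and 326794, and the table keeps no read depth. On log2(FPKM + 1), CON_CS libraries correlated with each other at Pearson's r of 0.972 to 0.981, DSS_CS libraries at 0.944 to 0.963, and libraries of different groups at 0.676 to 0.806. A first principal component with 83.4% of the variance separated all DSS_CS from all CON_CS libraries. Mitochondrial genes took 11.7% to 14.1% of FPKM in CON_CS and 6.01% to 11.3% in DSS_CS. Of the libraries, 3 held RNA of prostate genes: Pbsn, the prostate secretory protein probasin, was at 185, 0.131, 0.119 and 0.375 FPKM in CON_CS replicates 1 to 4 and at 0, 0.526, 128 and 1355 in DSS_CS replicates 1 to 4. CON_CS replicate 1 and DSS_CS replicates 3 and 4 therefore stand apart, and counts are also given without these 3. Genes of the small intestine that define absorptive villus cells, Lct and Sis, were at most 0.11 and 0.0168 FPKM in any of the 8 libraries, and the pan-epithelial genes Epcam and Cdh1 were at least 91.9 and 38.7 FPKM in all of them.

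The colon epithelium is a single layer in which stem cells at the crypt base give rise to absorptive colonocytes, which take up water, salt and butyrate, and to goblet cells, which secrete mucus. DSS damages this layer and exposes the tissue beneath to bacteria. Neutrophils and monocytes are then drawn in by chemokines, and fibroblasts and their matrix-degrading enzymes rebuild the wall, while interleukin-22 from ILC3 and T cells acts on the epithelium. In RNA from whole tissue, fewer cells of a type and less RNA per cell cannot be told apart.

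In CS mice DSS raised chemokine, cytokine, acute phase and matrix genes and lowered genes of colonocytes, goblet cells, cell junctions and oxidative metabolism. Neutrophil genes were also higher, but those that rose reached 1 FPKM only in DSS_CS libraries and could only be higher. The same held for part of the chemokine and cytokine genes, as given below. In limma's test on log2(FPKM + 1), 8666 of the 14372 genes passed an adjusted p of 0.05 (60.3%), with 4937 higher (34.4%) and 3729 lower (25.9%) in DSS_CS. Median-of-ratios scaling, which lowered the log2 differences by a median of 0.11, gave 4131 higher and 4692 lower. Without the 3 libraries with prostate RNA the counts were 4140 higher and 2861 lower. The median log2 difference over all tested genes was 0.06, and 2352 genes rose and 1376 fell by at least 2-fold. The ranges of the groups did not overlap for 8190 genes (57%). At least 1 FPKM was found in all 4 DSS_CS but no CON_CS library for 987 genes, and the opposite held for 306. Genes of these kinds met the filter through 1 group, so they could only be higher or lower, respectively, and their direction supports nothing. Beside each list below with several such members their number is given.

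Of genes with a mean of at least 5 FPKM in the higher group and ranges that did not overlap, the 10 largest rises were S100a9, S100a8, Saa3, Mmp3, Serpina3n, Hbb-bt, Mmp10, Il11, Il1b and Hp, with log2 differences from 6.47 to 9.17. Of these, S100a9, S100a8, Saa3, Mmp3, Mmp10, Il11 and Hp met the filter through DSS_CS alone and could only be higher. The 10 largest falls were Hao2, Slc26a3, Hsd11b2, Klk1, Gsdmc3, Sycn, Selenbp1, Nlrp6, Sult1d1 and Cyp2c55, from -5.55 to -4.50. Hao2, a peroxisomal hydroxyacid oxidase (ENSMUSG00000027870, chromosome 3, 98874521 to 98893239, GRCm38), was at 153, 133, 154 and 192 FPKM in the CON_CS libraries and 3.48, 0.917, 1.49 and 5.06 in the DSS_CS libraries. Its log2 difference was -5.55 ± 0.33 (adjusted p = 2.15e-06). Klk1, a tissue kallikrein, was at 506, 441, 462 and 473 FPKM in the CON_CS libraries and 17.5, 3.87, 19.4 and 12.3 in the DSS_CS libraries, and every DSS_CS library lay far below every control. Selenbp1, a selenium-binding methanethiol oxidase, went from 412 ± 31.1 to 15.3 ± 7.98 FPKM (mean ± SD, n = 4). Nlrp6, an inflammasome sensor of the gut epithelium, was at 42.2 to 52.4 FPKM in CON_CS and 0.311 to 3.02 in DSS_CS. Sycn, at 203 to 369 against 4.24 to 27.9 FPKM, encodes syncollin of secretory granules, and Gsdmc3, at 79.1 to 157 against 0.797 to 17.4, is a gasdermin with close paralogs, so its reads may be shared with them. In Gsdmc3, Sycn, Nlrp6 and Selenbp1 the highest of the DSS_CS libraries was replicate 1.

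**Figure D1:**
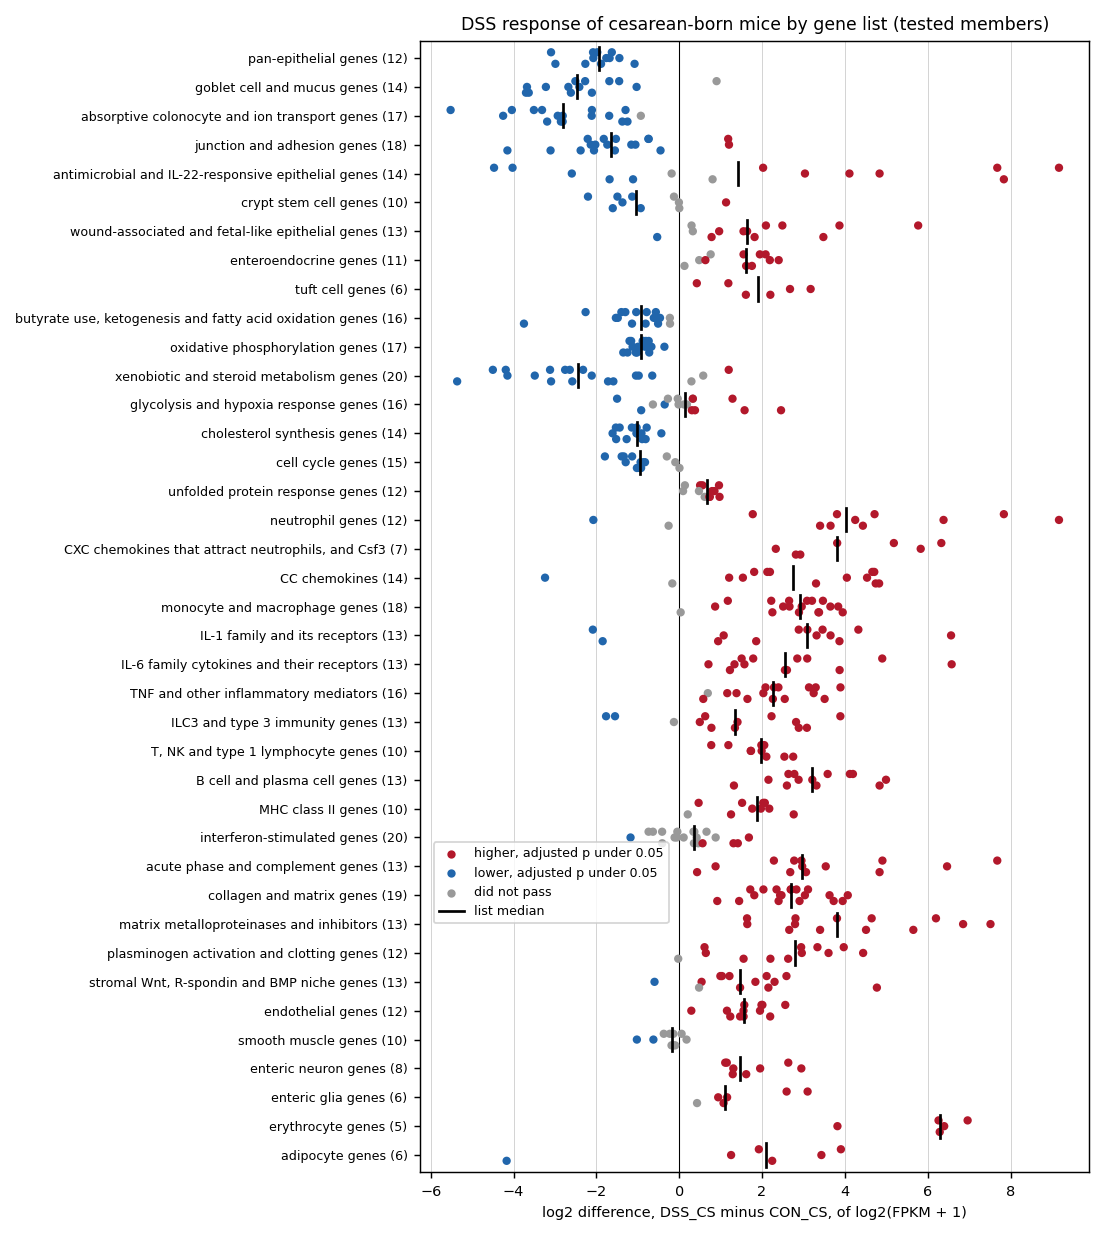
Log2 differences (DSS_CS minus CON_CS, x axis) of the tested members of each gene list with at least 5 tested members, 1 point per gene. Red and blue points passed limma's adjusted p of 0.05, grey points did not, black bars are list medians and the numbers in brackets count tested members. Lists of the absorptive epithelium lie left of 0 with medians down to -2.82, and the neutrophil and metalloproteinase lists lie right of 0, although 10 and 6 of their tested members met the filter through DSS_CS alone.

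All 12 pan-epithelial genes fell, with a median log2 difference of -1.93 beside 0.06 over all genes. Epcam, the epithelial adhesion molecule, was at 618, 687, 683 and 730.2 FPKM in the CON_CS libraries and 312, 91.9, 134 and 169 in the DSS_CS libraries. The log2 difference was -2.08 ± 0.32 (adjusted p = 0.000485). Of the DSS_CS libraries replicate 1 was highest and replicate 2 lowest, and the groups did not overlap. Cdh1, E-cadherin, ranged from 194 to 223 FPKM in CON_CS and 38.7 to 118 in DSS_CS, a log2 fall of 1.68 (adjusted p = 0.000813). The intestinal transcription factors Cdx1 and Hnf4a fell further, by 3.10 (adjusted p = 5.41e-05) and 2.99 (adjusted p = 7.28e-05), and the keratin Krt18 by 1.63 (adjusted p = 0.000176). The mean log2(FPKM + 1) of the list was 7.81 to 8.02 in CON_CS and 5.16 to 6.77 in DSS_CS. The part of this general epithelial level in the results on epithelial genes below was not tested. With the 3 libraries with prostate RNA left out, 9 of 12 fell.

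Goblet cell and mucus genes fell in 13 of 14 cases and rose in none, with a median of -2.46. Muc2, the gel-forming mucin of the colon, was at 195, 93.04, 116 and 106 FPKM in the CON_CS libraries and 51.2, 21.8, 48.2 and 35.4 in the DSS_CS libraries. This was a log2 difference of -1.69 ± 0.31 (adjusted p = 0.00125), and the groups did not overlap. The mucus protein Fcgbp was at 190.4, 111, 134 and 128 FPKM in the CON_CS libraries and 24.8, 11, 25.9 and 25.9 in the DSS_CS libraries, and the groups were far apart. Atoh1, the transcription factor that commits cells to the secretory lineage, was at 20.8, 18.4, 24.9 and 23.7 FPKM in the CON_CS libraries and 1.26, 0.185, 1.28 and 0.863 in the DSS_CS libraries, a log2 difference of -3.63 ± 0.21 (adjusted p = 1.79e-06). Bcas1 and Fer1l6 fell by 3.22 (adjusted p = 1.38e-06) and 2.11 (adjusted p = 2.12e-05). The member that did not pass was Retnlb, an antibacterial goblet cell protein, whose 4 control libraries were at 174, 0.881, 0.892 and 135 FPKM and whose DSS_CS libraries were at 67.9, 10.4, 28.1 and 44.1. The same number of goblet cell genes, 13, fell when the 3 libraries with prostate RNA were left out.

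Of 18 absorptive colonocyte genes, 17 were tested and 16 fell, with a median of -2.82. Among the 17, 2 met the filter through CON_CS alone and could only be lower. Slc26a3, an exchanger of chloride for bicarbonate in surface cells, was at 109, 95.9, 112 and 63.2 FPKM in the CON_CS libraries and 2.56, 0.394, 0.366 and 1.54 in the DSS_CS libraries. The log2 fall was 5.52 (adjusted p = 2.03e-06), to under 3 FPKM in every DSS_CS library. Car1, a carbonic anhydrase, was at 293, 848, 762 and 567 FPKM in the CON_CS libraries and 196, 66.8, 39.03 and 81.6 in the DSS_CS libraries, with DSS_CS replicate 1 highest and CON_CS replicate 1 lowest of their groups. Best2, a bicarbonate-conducting channel of goblet cells counted in this list, was at 24.2, 22.8, 24.3 and 21.6 in CON_CS and 0.531, 0, 0.118 and 0.52 in DSS_CS. The sodium channel subunit Scnn1a fell from 17.7 ± 2.52 to 3.35 ± 0.749 FPKM (log2 -2.11, adjusted p = 4.83e-06). Aqp4, a water channel, was the tested member that did not pass (log2 -0.93, adjusted p = 0.223), and the sodium-hydrogen exchanger Slc9a3 was below the filter. Of the 17, 14 fell without the 3 libraries with prostate RNA.

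Junction and adhesion genes fell in 16 of 18 cases (median -1.65) and rose in 2, the claudins Cldn4 and Cldn1. Of these 2, Cldn1 met the filter through DSS_CS alone and could only be higher. Cldn2, a pore-forming claudin, was at 43.3, 38.3, 38.9 and 47.2 FPKM in the CON_CS libraries and 2.91, 0.348, 0.678 and 2.81 in the DSS_CS libraries. The log2 fall was 4.15 (adjusted p = 1.16e-05). The sealing claudin Cldn8 fell by 3.11 (adjusted p = 5.25e-05), Cldn3 by 2.21 (adjusted p = 0.000227) and the tight junction protein Ocln by 2.14 (adjusted p = 6.62e-05). Cldn4 moved the other way, from 20.6, 19.8, 18.7 and 17.7 to 78.8, 30.7, 45.5 and 38.2 FPKM, a log2 difference of 1.20 ± 0.25 (adjusted p = 0.00262). Cldn1 was at 0.735, 0.977, 0.797 and 0.533 in CON_CS and at 1.19, 1.77, 7.81 and 3.67 in DSS_CS (log2 1.18, adjusted p = 0.0245), highest in DSS_CS replicates 3 and 4, both with prostate RNA. The Cldn1 call ended when 1 of several libraries was left out (without CON_CS replicate 1, 3 or 4 or DSS_CS replicate 4, adjusted p = 0.05004 to 0.0627) or the 3 with prostate RNA were (log2 0.49, adjusted p = 0.0601). Without the 3 libraries with prostate RNA, 11 fell and 1 rose.

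**Figure D2:**
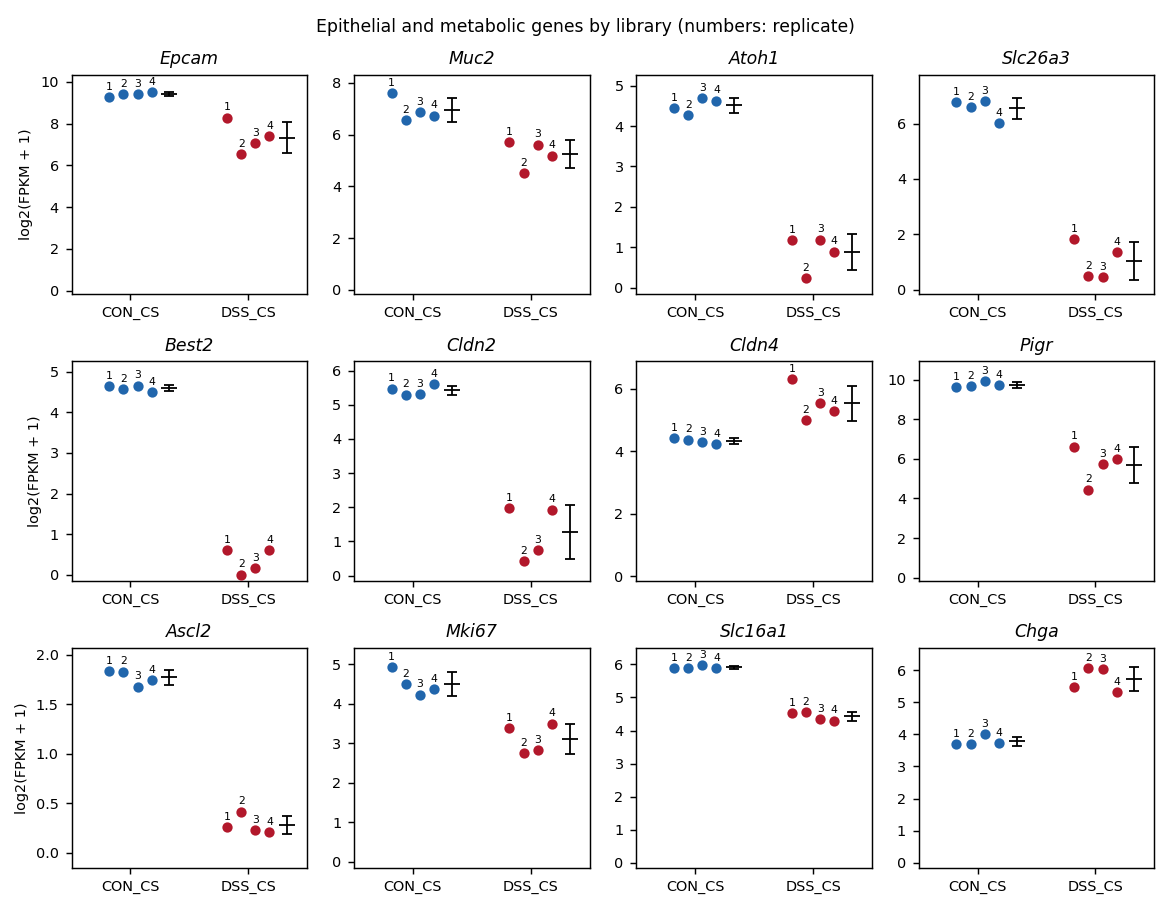
Level of 12 epithelial and metabolic genes on the log2(FPKM + 1) scale (y axis) in the CON_CS (blue) and DSS_CS (red) libraries, 1 point per library with its replicate number. Black marks are mean ± SD over 4 libraries and are left out where a library is listed at 0. Groups do not overlap in any of the 12 panels, Cldn4 and Chga are higher in DSS_CS and the other 10 are lower, and replicate 2 is the lowest DSS_CS library for Epcam, Muc2, Atoh1 and Pigr.

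Antimicrobial and interleukin-22-responsive epithelial genes went both ways, with 7 higher and 5 lower of 14 tested, beside 34.4% and 25.9% of all genes. Among the 14, 4 met the filter through DSS_CS alone and could only be higher. Without the 3 libraries with prostate RNA, 7 were higher and 4 lower. The risers named by the rule were S100a8, S100a9, Saa3 and Lbp, all of which leukocytes or stromal cells can also make. Lbp, lipopolysaccharide-binding protein, was at 1.60, 1.11, 1.65 and 1.35 FPKM in the CON_CS libraries and 40.5, 38.1, 41.1 and 43.3 in the DSS_CS libraries, a log2 difference of 4.11 ± 0.09 (adjusted p = 5.45e-08). The 4 DSS_CS libraries were nearly level. Saa3, a serum amyloid A, was at 0.194, 0.08, 0.189 and 0.127 FPKM in the CON_CS libraries and 116, 336, 314 and 245 in the DSS_CS libraries. The 5 that fell are epithelial products: Reg4 (166 to 342 FPKM in CON_CS and 4.76 to 16.1 in DSS_CS), Lypd8, a protein that keeps flagellated bacteria off the epithelium (6228 to 6706 against 563 to 2032), Dmbt1 (293 to 451 against 61.02 to 193), Saa1 (267 to 524 against 76.5 to 278) and Pigr, the receptor that carries IgA into the lumen. The Saa1 call ended when 1 of several libraries was left out (without CON_CS replicate 3 or 4 or DSS_CS replicate 3, adjusted p = 0.0509 to 0.0888) or the 3 with prostate RNA were (adjusted p = 0.1). Pigr was at 787, 811, 964 and 831 FPKM in the CON_CS libraries and 97.4, 20.8, 52.3 and 62.9 in the DSS_CS libraries, a log2 difference of -4.03 ± 0.39 (adjusted p = 3.11e-05). The lectins Reg3b and Reg3g, classic interleukin-22 targets, were below the filter and uneven among DSS_CS libraries. Reg3b was at 0.0355, 0, 0 and 0.136 FPKM in CON_CS and at 12.3, 0.502, 0.784 and 12.1 in DSS_CS, and Reg3g at 0, 0, 0 and 0.117 and 3.92, 0.0813, 0.495 and 3.10, high in DSS_CS replicates 1 and 4 for both.

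Crypt stem cell genes had 6 lower and 1 higher of 10 tested (median -1.03). Ascl2, a Wnt-dependent stem cell factor, was at 2.56, 2.56, 2.20 and 2.35 FPKM in the CON_CS libraries and 0.196, 0.333, 0.173 and 0.156 in the DSS_CS libraries, a log2 difference of -1.49 ± 0.09 (adjusted p = 1.76e-06). The Wnt target Axin2 fell by 1.61 (adjusted p = 8.28e-06) and Cdca7 by 1.14 (adjusted p = 6.04e-05). Lgr5, the receptor that marks these cells, was under the filter, at 0.627, 0.476, 0.508 and 0.313 FPKM in CON_CS and at 0.00774, 0.0388, 0.0318 and 0 in DSS_CS. Smoc2, which fibroblasts also express, was the member that rose, from 4.11 ± 0.378 to 10.5 ± 2.91 FPKM. Of wound-associated and fetal-like genes 10 of 13 tested rose and Krt7 fell, by 0.53 (adjusted p = 0.00411, or 0.0503 without the 3 libraries with prostate RNA). Clu, a marker of injury-induced crypt cells, was at 5.95, 6.75, 9.14 and 6.31 FPKM in the CON_CS libraries and 68.02, 67.9, 101 and 127 in the DSS_CS libraries. The epidermal growth factor family ligand Ereg was at 3.33, 2.13, 1.09 and 1.06 FPKM in the CON_CS libraries and 65.5, 258, 149 and 199 in the DSS_CS libraries. The alarmin Il33, also made by stroma, was at 1.53, 2.75, 4.01 and 3.62 FPKM in the CON_CS libraries and 61.9, 41.6, 60.2 and 60.1 in the DSS_CS libraries. All 3 rose with groups far apart, by 3.48, 5.77 and 3.87 (adjusted p = 2.67e-06, 5.58e-06 and 1.79e-06). Ly6a, which encodes Sca-1 of the fetal-like program, did not pass, with 424, 294, 221 and 263 FPKM in CON_CS and 531, 251, 336 and 368 in DSS_CS (adjusted p = 0.359), and the groups overlapped. Anxa1 rose by 0.96 (adjusted p = 0.00031).

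Enteroendocrine genes rose in 8 of 11 cases and fell in none, while the epithelial genes above fell. The granule protein Chga was at 11.99, 12.01, 15.1 and 12.2 FPKM in the CON_CS libraries and 43.6, 66.3, 64.7 and 39.1 in the DSS_CS libraries, a log2 difference of 1.95 ± 0.18 (adjusted p = 2.42e-05). Chgb rose by 2.19 (adjusted p = 3.7e-05) and the hormone Sst, somatostatin, by 2.40 (adjusted p = 2.03e-06). These genes are also expressed by enteric neurons, whose markers rose too (below). The hormones of colonic L cells did not pass: Pyy was at 95.6 to 110.2 FPKM in CON_CS and 109.6 to 345 in DSS_CS (adjusted p = 0.0551, though without DSS_CS replicate 2 or 3, adjusted p = 0.0145 to 0.0439) and Insl5 at 68.4 to 97.8 against 71.3 to 139 (adjusted p = 0.622). Neurog3, the factor of endocrine progenitors, was at 0.577, 0.75, 0.502 and 0.622 FPKM in CON_CS and at 0.448, 0.0186, 0.0279 and 0.283 in DSS_CS. Of 12 tuft cell genes 6 were below the filter, and 2 of the 6 tested met it through DSS_CS alone. Those that rose included Alox5ap (log2 3.17, adjusted p = 7.64e-07) and Ltc4s (log2 2.20, adjusted p = 5.14e-06), which leukocytes share. The defining tuft cell gene Trpm5 was at most 0.299 FPKM in any library and lower in every DSS_CS library, and Dclk1 rose from 0.405 ± 0.101 to 2.22 ± 0.554 FPKM. In the squamous list, where Krt5 was at most 1.66 FPKM, Krt13 and Sprr1a rose (log2 1.48 and 1.62, adjusted p = 0.00194 and 0.014). Krt14 did not pass (adjusted p = 0.156, but without DSS_CS replicate 3, adjusted p = 0.0471). With the 3 libraries with prostate RNA left out, Sprr1a did not pass (adjusted p = 0.0752) and Krt14 did (adjusted p = 0.01).

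All 17 tested oxidative phosphorylation genes fell (median -0.93, beside 0.06 over all genes), 16 of them without the 3 libraries with prostate RNA. Sdha of complex II was at 76.3, 80.2, 81.7 and 79.3 FPKM in the CON_CS libraries and 41.3, 36.7, 38.8 and 37.8 in the DSS_CS libraries, a log2 difference of -1.02 ± 0.07 (adjusted p = 5.91e-06). Atp5b, the catalytic ATP synthase subunit, fell by 1.20 (adjusted p = 1.87e-05), and Ndufs1 of complex I by 0.86 (adjusted p = 2.31e-05). Butyrate use, ketogenesis and fatty acid oxidation genes fell in 14 of 16 cases (median -0.93). The butyrate transporter Slc16a1 was at 58.6, 58.3, 61.9 and 58.7 FPKM in the CON_CS libraries and 22.2, 22.4, 19.2 and 18.7 in the DSS_CS libraries, a log2 difference of -1.48 ± 0.08 (adjusted p = 1.73e-06), with little spread in either group. A second butyrate transporter, Slc5a8, went from 30.8 ± 3.64 to 1.53 ± 1.20 FPKM, and the acyl-CoA dehydrogenase Acadm fell by 1.40 (adjusted p = 5.13e-06).

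Xenobiotic and steroid metabolism genes fell in 17 of 20 cases and rose in 1 (median -2.45). Among the 20, 4 met the filter through CON_CS alone and could only be lower. Hsd11b2, which inactivates corticosteroids in aldosterone target cells, was at 125, 106, 116 and 111 FPKM in the CON_CS libraries and 4.53, 0.428, 1.24 and 2.503 in the DSS_CS libraries. The sulfotransferases Sult1a1 and Sult1d1 and the glucuronosyltransferase Ugt1a1 fell by 4.15, 4.52 and 3.10 (adjusted p = 1.91e-06, 9.16e-06 and 2.33e-06). Cyp2c55, a cytochrome P450 of the colon, was uneven in the controls, at 80.1, 136, 24.5 and 25.1 FPKM, and at 8.76, 0.381, 0.406 and 0.482 in DSS_CS. The carboxylesterase Ces1d rose by 1.19 (adjusted p = 0.00049) and Ces1f did not pass (adjusted p = 0.343, but without DSS_CS replicate 1, adjusted p = 0.0119). All 14 cholesterol synthesis genes fell, with Hmgcs1 at 57.7 to 67.8 FPKM in CON_CS and 16.8 to 29.3 in DSS_CS. Idi1 fell by 1.44 (adjusted p = 4.72e-05).

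Cell cycle genes fell in 12 of 15 cases. Mki67, a marker of dividing cells, was at 29.5, 21.4, 17.8 and 19.6 FPKM in the CON_CS libraries and 9.40, 5.72, 6.11 and 10.3 in the DSS_CS libraries, a log2 difference of -1.39 ± 0.21 (adjusted p = 0.000434). The mitotic genes Plk1 and Top2a fell by 1.80 and 1.29 (adjusted p = 0.000104 and 0.000941), while the replication genes Mcm2, Mcm5 and Pcna did not pass (log2 0.01, -0.30 and -0.10). Glycolysis and hypoxia genes went both ways, with 6 higher and 3 lower of 16, beside 34.4% and 25.9% of all genes, and with median-of-ratios scaling 4 and 5. Pfkfb3, a glycolytic regulator, and the hypoxia-induced genes Bnip3 and Adm rose by 2.46, 1.58 and 1.29 (adjusted p = 3.98e-05, 4.12e-05 and 0.000472), whereas the glucose transporter Slc2a1 and the hexokinase Hk2 did not pass (log2 0.33 and -0.02), although Slc2a1 did without DSS_CS replicate 2 (adjusted p = 0.0285). Unfolded protein response genes rose in 8 of 12 cases, 6 under median-of-ratios scaling, the largest by 0.97. They included Atf4 (0.74, adjusted p = 0.000377), Xbp1 (0.79, adjusted p = 0.00254) and the chaperone Hspa5 (0.96, adjusted p = 0.00633).

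Neutrophil genes were higher in 10 of 12 tested cases, with the same count without the 3 libraries with prostate RNA. These 10 all met the filter through DSS_CS alone and could only be higher, so neither count supports a rise of the list. S100a9, which with S100a8 forms the metal-binding protein calprotectin (ENSMUSG00000056071, chromosome 3, 90692632 to 90695721, GRCm38), was at 0, 0, 0 and 0.322 FPKM in the CON_CS libraries and 609.6, 453, 690.1 and 759 in the DSS_CS libraries. The log2 difference was 9.17 ± 0.17 (adjusted p = 2.36e-08), the largest rise of the genes named here. S100a8 was at 0.435, 0.137, 0 and 0.114 FPKM in the CON_CS libraries and 256, 183, 315 and 333 in the DSS_CS libraries, and both were lowest in DSS_CS replicate 2. Csf3r, the receptor for granulocyte colony-stimulating factor, was at 0.376, 0.198, 0.31 and 0.186 FPKM in the CON_CS libraries and 31.6, 29.5, 32.7 and 35.6 in the DSS_CS libraries, a log2 difference of 4.72 ± 0.09 (adjusted p = 2.36e-08). Cd177, which colon epithelium also expresses, fell from 34.4 ± 3.60 to 8.28 ± 4.65 FPKM, and Ly6g did not pass, with 89.05 to 133 FPKM in CON_CS and 58.1 to 154 in DSS_CS. Precursor granule genes were low, with Mpo at most 0.338 and Elane at most 1.10 FPKM.

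Of the 8 CXC chemokines and growth factors that draw or raise neutrophils 7 were tested and rose, but 6 of them met the filter through DSS_CS alone and could only be higher. For 2 of the chemokine genes the start-site sequence is shown, chosen because both hold the same motif. Both met the filter through DSS_CS alone, so their shared direction was fixed, and a role of the motif was not tested. The 120 bases before each annotated start (RefSeq, GRCm38.p6, plus strand) hold 2 matches each to the NF-kB motif GGGNNTTTCC, in capitals, searched on both strands. In windows of 300 bases, 1.63% of all 32851 RefSeq promoters held it.
Cxcl1, chr5:90891125-90891244: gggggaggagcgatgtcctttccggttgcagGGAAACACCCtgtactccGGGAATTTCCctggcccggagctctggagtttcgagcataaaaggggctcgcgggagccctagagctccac
Cxcl2, chr5:90903779-90903898: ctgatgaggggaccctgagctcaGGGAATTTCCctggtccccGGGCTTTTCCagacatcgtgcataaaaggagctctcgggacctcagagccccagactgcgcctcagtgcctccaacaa
The matches begin 89 and 71 bases before the start in Cxcl1 and 97 and 78 in Cxcl2. Of the 8 members, 6 had a promoter in the table and 3 of these, with Cxcl3, held the motif. Among genes higher under DSS 1.88% of promoters held it, and among genes lower 1.92%. Neither of these windows holds the AP-1 motif searched below.

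Cxcl1 was at 0.229, 0.147, 0.394 and 0.603 FPKM in the CON_CS libraries and 40.6, 29.8, 46.1 and 89.8 in the DSS_CS libraries. Its log2 difference was 5.18 ± 0.29 (adjusted p = 1.67e-06). Cxcl2 was at 0, 0, 0.0329 and 0.0457 FPKM in the CON_CS libraries and 63.9, 23.03, 89.1 and 79.6 in the DSS_CS libraries, lowest in DSS_CS replicate 2, a log2 difference of 5.83 ± 0.37 (adjusted p = 2.7e-06). Cxcl5 was at 0.108, 0.126, 0.14 and 0 FPKM in the CON_CS libraries and 67.2, 97.6, 105 and 82.5 in the DSS_CS libraries, a log2 difference of 6.33 ± 0.14 (adjusted p = 5.29e-08). Csf3, granulocyte colony-stimulating factor, was listed at 0 in every CON_CS library and was at 10.6, 9.11, 14.7 and 20.4 FPKM in DSS_CS (adjusted p = 1.49e-06). For each of these 4 genes every DSS_CS library was above every control.

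CC chemokines rose in 12 of 14 cases, 4 members meeting the filter through DSS_CS alone. Ccl3, a myeloid chemokine, was at 0, 0, 0.482 and 0.183 FPKM in the CON_CS libraries and 31.3, 16.4, 27.04 and 31.2 in the DSS_CS libraries. The monocyte attractants Ccl2 and Ccl7 rose by 4.71 and 4.74 (adjusted p = 2.94e-06 and 1.29e-06) and Ccl9 by 4.05 (adjusted p = 9.83e-08). Ccl28, the epithelial chemokine that draws IgA plasma cells, fell from 44.5, 26.2, 27.7 and 32.1 FPKM in CON_CS to 5.14, 0.64, 2.04 and 3.81 in DSS_CS, and Ccl20 did not pass. Interferon-induced CXC chemokines were low: Cxcl10 was at 0.399 to 3.02 FPKM in CON_CS and 2.86 to 6.38 in DSS_CS and passed (log2 1.32, adjusted p = 0.0103, and 1.999 without the 3 libraries with prostate RNA), and Cxcl9 was at 0.421 to 2.52 FPKM in CON_CS and 1.20 to 3.23 in DSS_CS and did not (adjusted p = 0.203). Of 18 monocyte and macrophage genes 17 rose and none fell, and 3 met the filter through DSS_CS alone. The complement gene C1qa was at 32.3, 24.7, 29.1 and 28.5 FPKM in the CON_CS libraries and 205, 275, 276 and 249.7 in the DSS_CS libraries, a log2 difference of 3.09 ± 0.13 (adjusted p = 4.04e-07). C1qb, C1qc, the growth factor receptor Csf1r and Adgre1 rose by 2.96, 2.89, 2.51 and 2.22 (adjusted p = 7.64e-07, 5.41e-07, 2.36e-06 and 6.87e-05).

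Interleukin-1 family genes rose in 11 of 13 cases and fell in 2, with 5 in the test through DSS_CS alone. Il1b, the secreted cytokine of activated myeloid cells, was at 1.25, 1.07, 0.202 and 0.25 FPKM in the CON_CS libraries and 157, 99.1, 159 and 220.3 in the DSS_CS libraries, a log2 difference of 6.56 ± 0.28 (adjusted p = 5.26e-07). Il1a rose by 3.46 (adjusted p = 2.76e-06) and the receptor Il1r1 by 2.89 (adjusted p = 3.44e-06). Il1f9, interleukin-36 gamma, was listed at 0 in all CON_CS libraries and at 10.9, 5.15, 10.1 and 11.1 FPKM in DSS_CS. The members that fell were Il18, the interleukin of epithelial cells, from 47.3, 57.99, 75.9 and 75.2 to 25.7, 8.81, 8.33 and 19.96 FPKM, and Casp1, the protease that processes it, from 28.3, 29.2, 33.04 and 35.4 to 11.2, 5.76, 7.28 and 8.58. Of 13 tested interleukin-6 family genes, which rose, 7 met the filter through DSS_CS alone. Il11, a cytokine of fibroblasts, was at 0.211, 0.134, 0.174 and 0.137 FPKM in the CON_CS libraries and 50.2, 167, 94.8 and 185 in the DSS_CS libraries, a log2 difference of 6.58 ± 0.36 (adjusted p = 1.44e-06), lowest in DSS_CS replicate 1. Il6 itself was at 0, 0.0329, 0.0487 and 0.00398 FPKM in the CON_CS libraries and 5.37, 7.77, 5.64 and 14.4 in the DSS_CS libraries, and the receptors Osmr and Il6st rose by 2.85 and 2.60 (adjusted p = 5.11e-07 and 1.03e-06).

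Of 16 other inflammatory mediators 15 rose, 4 of them tested through DSS_CS alone. Tnf was at 1.45, 0.533, 2.76 and 1.60 FPKM in the CON_CS libraries and 20.99, 7.53, 9.57 and 9.55 in the DSS_CS libraries, highest in DSS_CS replicate 1, a log2 difference of 2.29 ± 0.34 (adjusted p = 0.000378). Its receptor Tnfrsf1a was at 20.5 to 21.6 FPKM in CON_CS and 82.5 to 99.7 in DSS_CS (log2 2.08, adjusted p = 3.86e-07). The leukocyte adhesion molecule Icam1 and the prostaglandin E synthase Ptges rose by 3.30 and 3.13 (adjusted p = 8.19e-07 and 1.6e-06), and the feedback inhibitor Tnfaip3 did not pass (log2 0.69, adjusted p = 0.0545, but without DSS_CS replicate 2, adjusted p = 0.00269). Acute phase and complement genes rose in 13 of 13 tested cases, 3 of which met the filter through DSS_CS alone. Hp, haptoglobin, was at 0.225, 0.262, 0.32 and 0.0294 FPKM in the CON_CS libraries and 81.99, 106, 101 and 141 in the DSS_CS libraries. The complement component C3 was at 9.80, 8.07, 8.66 and 5.18 FPKM in the CON_CS libraries and 244, 237, 291 and 277 in the DSS_CS libraries. Serpina3n, an acute phase protease inhibitor, went from 1.38 ± 0.433 to 355 ± 89.8 FPKM, a log2 difference of 7.20 ± 0.21 (adjusted p = 1.05e-07).

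Interleukin-22 RNA was found only in the DSS_CS libraries of the 8, while the receptor gene Il22ra1 fell. Il22 (ENSMUSG00000074695, chromosome 10, 118204942 to 118210047, GRCm38) was listed at 0 in all 4 CON_CS libraries and was at 1.58, 2.18, 1.11 and 1.86 FPKM in DSS_CS (adjusted p = 2.01e-05). It met the filter through DSS_CS alone and could only be higher, so its direction in this test supports nothing. Il22ra1, its receptor subunit on epithelial cells, fell from 18.9, 18.5, 20.8 and 15.2 to 6.80, 2.28, 5.36 and 5.25 FPKM, a log2 difference of -1.77 ± 0.25 (adjusted p = 0.000253). The same libraries had lower pan-epithelial genes, as given above, and the part of the epithelium in the Il22ra1 values was not tested. Of 20 ILC3 and type 3 genes 13 were tested, 10 rose and 2 fell (5 met the filter through DSS_CS alone), with 1 fewer riser without the 3 libraries with prostate RNA. Ltb, a lymphotoxin, rose by 3.89 (adjusted p = 8.38e-07) and Cxcr5, also a B cell gene, by 2.82 (adjusted p = 5.47e-06). Il17a was listed at 0 in the controls and at 0.63, 0, 0.992 and 1.18 FPKM in DSS_CS, and Il23r was at most 0.419.

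Genes of T and NK cells were low, and 8 of 18 were below the filter. Of the 10 tested, which rose, 5 met the filter through DSS_CS alone and could only be higher. Cd4 was at 0.685, 0.847, 0.504 and 0.347 FPKM in the CON_CS libraries and 8.00, 8.30, 11.8 and 11.1 in the DSS_CS libraries (log2 2.75, adjusted p = 1.41e-06). Trbc1, Ctla4 and Cd3g rose by 1.99, 2.05 and 1.19 (adjusted p = 1.13e-05, 7.42e-06 and 0.00018), and Cd3e, below the filter, was higher in every DSS_CS library (0.187 to 0.255 against 0.905 to 2.28 FPKM). The type 1 genes Ifng and Tbx21 were at most 0.358 and 0.579 FPKM. B cell and plasma cell genes rose in the 13 tested cases, 5 of which met the filter through DSS_CS alone. Cd79a, a subunit of the B cell receptor, was at 0.631, 1.90, 1.04 and 0.889 FPKM in the CON_CS libraries and 41.5, 46.97, 68.9 and 84.6 in the DSS_CS libraries, a log2 difference of 4.84 ± 0.25 (adjusted p = 1.12e-06). Cd79b, Ms4a1 and Pax5 rose by 4.19, 3.21 and 2.15 (adjusted p = 3.86e-07, 1.55e-06 and 3.9e-07). The immunoglobulin share of FPKM was 0.285% to 1.47% in CON_CS and 2.69% to 12.3% in DSS_CS, highest in replicate 4.

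MHC class II genes rose in 9 of 10 cases, 2 of them tested through DSS_CS alone. H2-Aa was at 14.8, 15.6, 10.2 and 9.80 FPKM in the CON_CS libraries and 48.3, 34.9, 67.5 and 71.03 in the DSS_CS libraries, and the groups did not overlap. H2-Ab1 rose by 2.17 (adjusted p = 0.000146), the transactivator Ciita by 1.76 (adjusted p = 4.8e-05) and H2-Ob, a B cell gene, by 2.76 (adjusted p = 3.55e-06). Interferon-stimulated genes mostly did not pass, with 4 higher and 1 lower of 20, beside 34.4% and 25.9% of all genes. Isg15, a ubiquitin-like protein, was at 57.4, 28.8, 7.38 and 24.3 FPKM in the CON_CS libraries and 75.3, 22.6, 38.2 and 31.3 in the DSS_CS libraries. Ifit1, an RNA-binding antiviral protein, was at 13.8, 6.75, 2.22 and 7.30 FPKM in the CON_CS libraries and 14.7, 4.33, 6.25 and 5.79 in the DSS_CS libraries. For both the groups overlapped. Bst2, Gbp5 and Iigp1 rose by 1.68, 1.41 and 1.31 (adjusted p = 0.000475, 5.99e-05 and 0.00557), and Oas1a fell by 1.18 (adjusted p = 0.00955, and 0.16 without the 3 libraries with prostate RNA). Among the 20, without those 3, 6 rose and none fell.

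**Figure D3:**
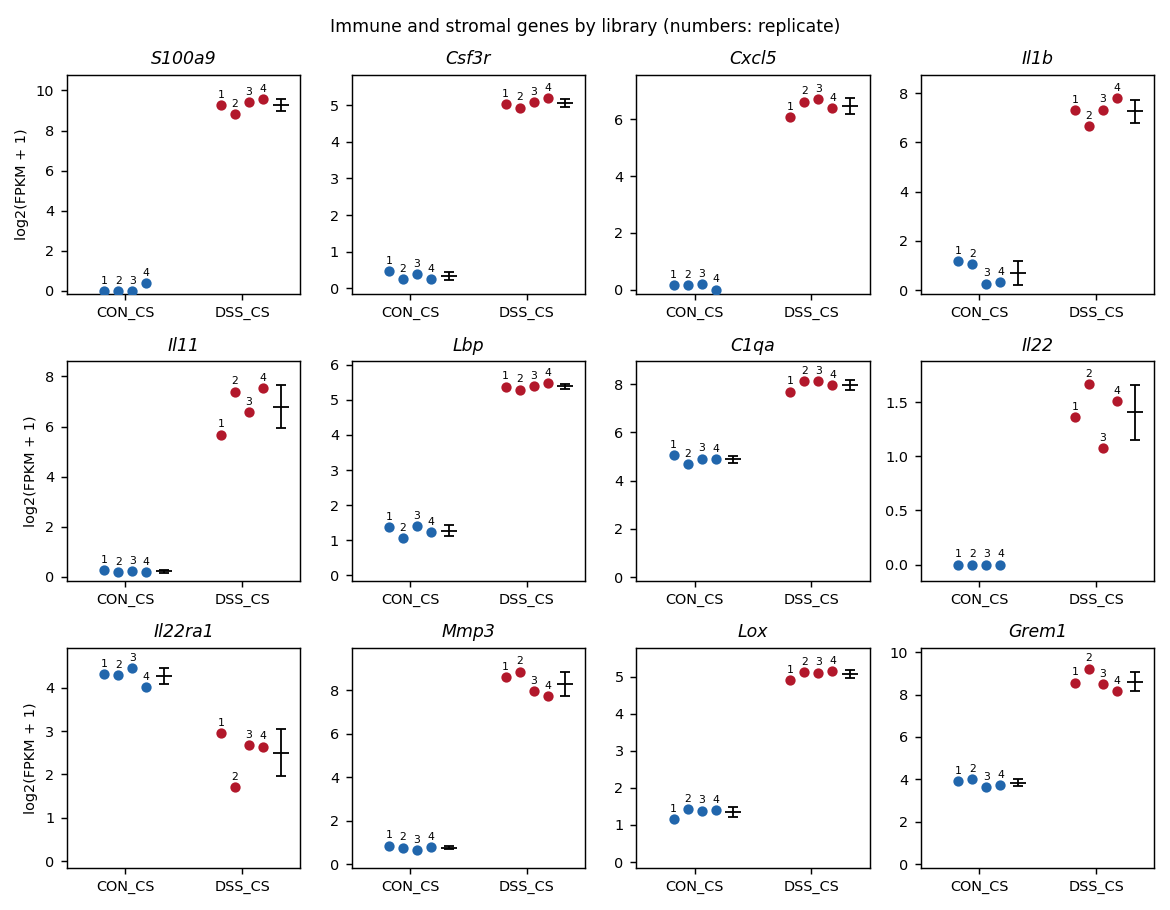
Level of 12 immune and stromal genes on the log2(FPKM + 1) scale (y axis) in the CON_CS (blue) and DSS_CS (red) libraries, 1 point per library with its replicate number. Black marks are mean ± SD over 4 libraries and are left out where a library is listed at 0. Il22ra1 is lower in every DSS_CS library than in any control, the other 11 genes are higher, and Lbp varies least among the DSS_CS libraries.

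The 13 tested matrix metalloproteinase and inhibitor genes rose, as they did without the 3 libraries with prostate RNA, and 6 of them met the filter through DSS_CS alone. The start-site sequences of the 3 metalloproteinases with the largest rises are shown, since all 3 hold a match to the AP-1 motif TGANTCA, in capitals, searched on both strands. A role of this motif was not tested. The stretches are the 120 bases before each annotated start (RefSeq, GRCm38.p6, plus strand).
Mmp3, chr9:7445702-7445821: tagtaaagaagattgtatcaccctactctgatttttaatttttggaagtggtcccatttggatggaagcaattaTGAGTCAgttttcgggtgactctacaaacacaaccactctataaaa
Mmp10, chr9:7502222-7502341: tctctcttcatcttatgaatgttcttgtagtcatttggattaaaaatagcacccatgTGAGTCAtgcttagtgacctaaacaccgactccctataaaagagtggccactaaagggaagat
Mmp13, chr9:7272394-7272513: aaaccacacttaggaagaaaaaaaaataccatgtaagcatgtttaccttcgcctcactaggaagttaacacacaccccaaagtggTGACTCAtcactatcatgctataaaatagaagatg
The matches begin 46, 63 and 35 bases before the start. In 300-base windows the motif was in 7.81% of all RefSeq promoters, in 6.53% of those of genes higher and 5.5% of those of genes lower under DSS. Of the 14 members, 11 had a promoter in the table and 5 of these held the motif, the other two being Mmp7 and Mmp12. The NF-kB motif was in none of the 11.

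Mmp3, stromelysin-1 (ENSMUSG00000043613, chromosome 9, 7445822 to 7455975, GRCm38), was at 0.813, 0.707, 0.59 and 0.72 FPKM in the CON_CS libraries and 389, 464, 248 and 209.7 in the DSS_CS libraries. All 4 DSS_CS libraries were above 200 FPKM and all controls below 1, a log2 difference of 7.52 ± 0.23 (adjusted p = 1.6e-07). Mmp10, stromelysin-2, was at 0.88, 0.248, 0.46 and 0.604 FPKM in the CON_CS libraries and 119, 165, 243 and 202 in the DSS_CS libraries, a log2 difference of 6.86 ± 0.22 (adjusted p = 1.6e-07). The collagenase Mmp13 was at 2.27, 1.05, 1.60 and 1.11 FPKM in the CON_CS libraries and 151, 199.5, 188 and 185 in the DSS_CS libraries, a log2 difference of 6.20 ± 0.16 (adjusted p = 6.33e-08). Mmp3 was highest in DSS_CS replicates 1 and 2 and Mmp10 in replicates 3 and 4. The gelatinase Mmp2 rose by 2.81 (adjusted p = 1.01e-05). Mmp7, below the filter, followed the libraries with prostate RNA, at 10.3, 0, 0.119 and 0 FPKM in CON_CS and 0, 0, 5.03 and 36.6 in DSS_CS.

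All 19 collagen and matrix genes rose (median 2.69). Lox, which cross-links collagen, was at 1.23, 1.71, 1.62 and 1.63 FPKM in the CON_CS libraries and 29.1, 33.9, 33.6 and 34.4 in the DSS_CS libraries, a log2 difference of 3.73 ± 0.09 (adjusted p = 5.47e-08). Col1a1 was at 28.2, 20.5, 21.9 and 19.6 FPKM in the CON_CS libraries and 144, 144, 144 and 170.1 in the DSS_CS libraries, and Col3a1 and Col1a2 rose by 2.91 and 2.47 (adjusted p = 5.41e-07 and 1.37e-06). Of 12 plasminogen activation and clotting genes 11 rose, with 4 tested through DSS_CS alone. Plaur, the urokinase receptor, was at 1.30 to 2.10 FPKM in CON_CS and 22.9 to 40.3 in DSS_CS, and its ligand Plau rose by 3.34 (adjusted p = 1.94e-06), the transglutaminase F13a1 by 2.96 (adjusted p = 1.86e-07) and the endothelial factor Vwf by 1.55 (adjusted p = 1.6e-06).

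Stromal Wnt, R-spondin and BMP genes rose in 11 of 13 cases. Grem1, a BMP antagonist of crypt-base fibroblasts, was at 14.3, 15.1, 11.6 and 12.4 FPKM in the CON_CS libraries and 376, 595, 357 and 288 in the DSS_CS libraries, a log2 difference of 4.77 ± 0.21 (adjusted p = 5.26e-07). The fibroblast receptor Pdgfra, Wnt4 and Wnt2b rose by 2.11, 1.84 and 1.03 (adjusted p = 9.52e-07, 4.49e-06 and 0.00249), and Wnt2 was below the filter. The Wnt2b value was 0.63 without the 3 libraries with prostate RNA. Bmp2 fell by 0.60 (adjusted p = 0.0356), a call that ended when 1 of several libraries was left out (without CON_CS replicate 3 or 4 or DSS_CS replicate 1, 2 or 3, adjusted p = 0.051 to 0.082) or the 3 with prostate RNA were (adjusted p = 0.0665). All 12 endothelial genes rose, with Pecam1 at 5.38 to 6.90 FPKM in CON_CS and 22.9 to 33.3 in DSS_CS and Plvap and Cdh5 up by 2.01 and 1.95 (adjusted p = 1.3e-06 and 1.09e-05). Smooth muscle genes mostly did not pass. Actg2 and Myh11 fell by 1.02 and 0.62 (adjusted p = 0.00959 and 0.0445). Leaving out DSS_CS replicate 2 gave 5 lower members, and most other single libraries gave 1, since Myh11 did not pass without CON_CS replicate 1, 2 or 3 or DSS_CS replicate 1, 3 or 4 (adjusted p = 0.0736 to 0.11). Acta2, smooth muscle actin, was at 531, 598, 433 and 533 FPKM in the CON_CS libraries and 404, 704, 403 and 339 in the DSS_CS libraries (adjusted p = 0.418, but without DSS_CS replicate 2, adjusted p = 0.0365), and the groups overlapped. DSS_CS replicate 2 had the highest Acta2 of all 8 libraries, and without the 3 libraries with prostate RNA no smooth muscle gene passed in limma's test (0 were lower at an unadjusted p under 0.05) and the median turned from -0.16 to 0.13.

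The 8 tested enteric neuron genes rose, 3 of them tested through DSS_CS alone, with the neuropeptide Vip at 7.30, 11.8, 7.55 and 7.21 FPKM in the CON_CS libraries and 76.7, 104, 61.9 and 50.3 in the DSS_CS libraries, a log2 difference of 2.95 ± 0.23 (adjusted p = 9.03e-06). The neuronal tubulin Tubb3 was at 2.04, 2.14, 1.23 and 1.30 FPKM in the CON_CS libraries and 15.2, 25.9, 13.8 and 10.3 in the DSS_CS libraries and Stmn2 rose by 1.15 (adjusted p = 5.66e-05). DSS_CS replicate 2, lowest in epithelial genes, was highest for all 3. Of 6 glia genes 5 rose (4 members met the filter through DSS_CS alone), with Gfap at 0.428 to 0.821 FPKM in CON_CS and 6.15 to 12.6 in DSS_CS, Ednrb up by 3.10 and Cdh19 by 1.16 (adjusted p = 1e-05, 4.43e-06 and 0.000362), and S100b was below the filter. The mesothelial genes Msln and Gpm6a rose, from at most 0.207 and 0.722 FPKM in CON_CS to at most 3.22 and 2.14 in DSS_CS. Both met the filter through DSS_CS alone and could only be higher.

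Markers of blood and fat moved with DSS and unevenly between its libraries. All 5 tested erythrocyte genes rose. The globin Hbb-bt was at 5.70, 3.94, 3.02 and 9.08 FPKM in the CON_CS libraries and 529, 185, 2108 and 1570.5 in the DSS_CS libraries. Hba-a1, near-identical to Hba-a2, so that their reads may be shared, was at 13.3, 9.90, 8.03 and 12.9 FPKM in the CON_CS libraries and 633, 239.8, 2509 and 1759.5 in the DSS_CS libraries. The 4 globins Hba-a1, Hba-a2, Hbb-bs and Hbb-bt held 0.00939% to 0.016% of FPKM in CON_CS and 0.306% to 3.46% in DSS_CS, highest in replicates 3 and 4. Of adipocyte genes 6 were tested (2 through DSS_CS alone), 5 rose and Pck1, also an intestinal gene, fell by 4.17 (adjusted p = 4.97e-05). Cfd, adipsin, was at 0.395, 2.58, 1.85 and 0 FPKM in the CON_CS libraries and 13.4, 27.4, 15.6 and 104 in the DSS_CS libraries. The defining adipocyte gene Adipoq, below the filter, was at 0.0977, 0, 0.0781 and 0 FPKM in CON_CS and 0.454, 1.28, 0.467 and 12.97 in DSS_CS. Both were highest in DSS_CS replicate 4. Lpl and Fabp4 rose by 3.43 and 2.24 (adjusted p = 5.25e-06 and 8.37e-05). The part of these tissues in the other results was not tested. The pancreas list had Cpa1 at most 0.21 FPKM, and its 1 tested member, Cela1, fell by 3.62 (adjusted p = 1.96e-06). Spink1, the tested member of the prostate list and also made by gut cells, fell by 1.21 (adjusted p = 0.012), and the seminal vesicle gene Svs1 was at most 0.0451. The skeletal muscle gene Ckm fell by 1.36 (adjusted p = 9.24e-05) and Acta1 did not pass (adjusted p = 0.126). Of small intestine genes Fabp2 and Fabp6 fell by 2.84 and 2.68 and Lyz1, also a phagocyte lysozyme, rose by 2.77 (adjusted p = 3.74e-05, 5.79e-06 and 1.99e-06). Among the 4 tested members of this list, 2 met the filter through CON_CS alone and could only be lower.

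**Figure D4:**
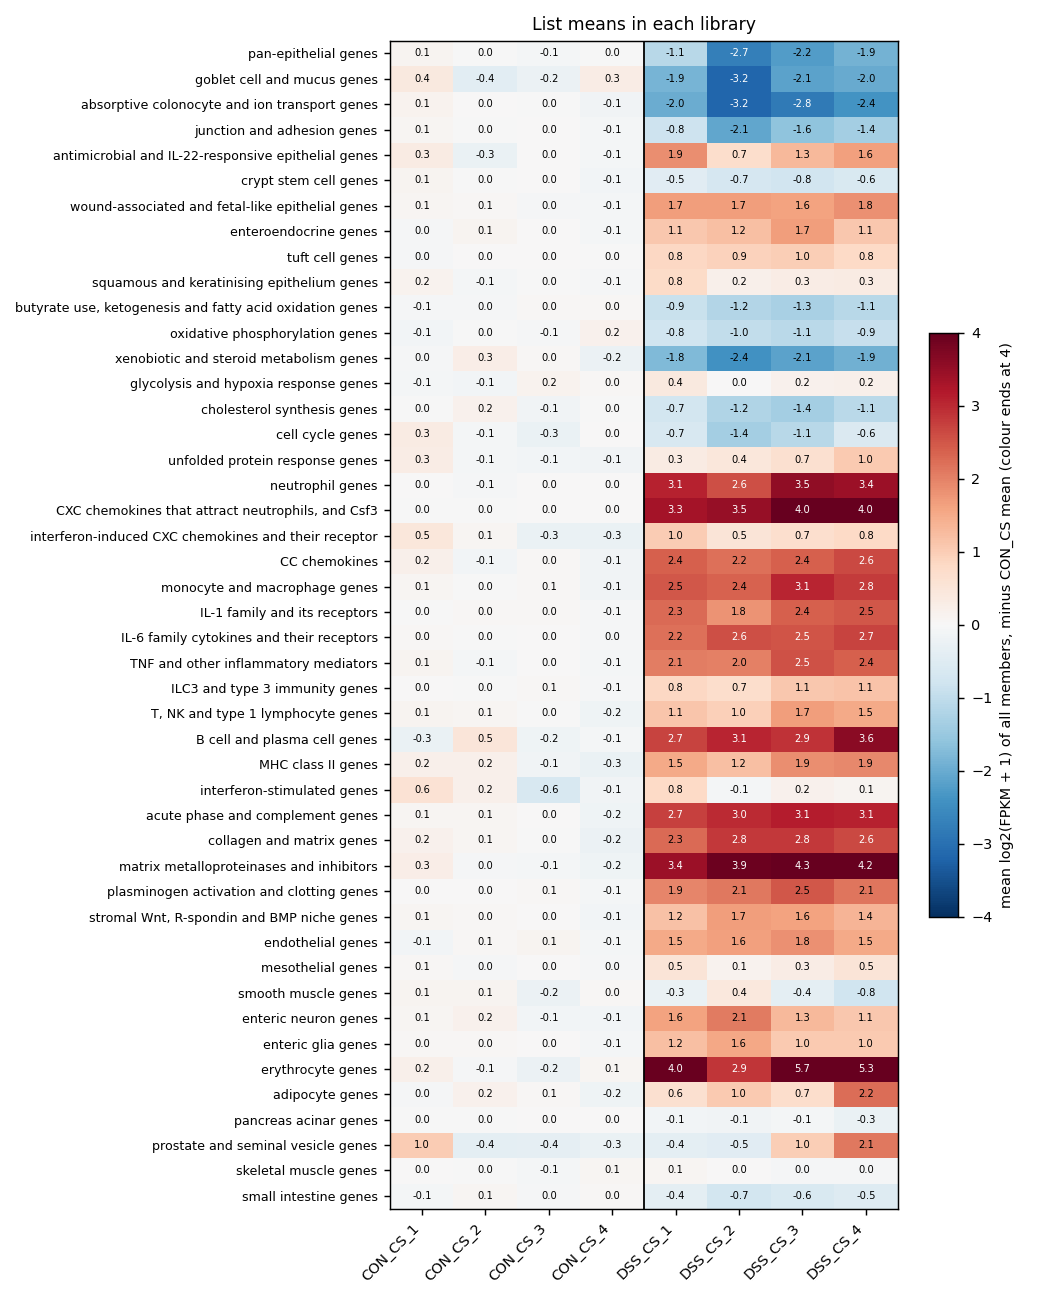
Mean log2(FPKM + 1) over all members of each list in each of the 8 libraries, minus the mean of the 4 CON_CS libraries (cell numbers and colour, which ends at 4). DSS_CS replicate 2 has the lowest pan-epithelial (-2.7) and highest enteric neuron (2.1) means, replicates 3 and 4 have the highest erythrocyte means (5.7 and 5.3), and prostate genes are raised in CON_CS replicate 1 and DSS_CS replicates 3 and 4.

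The same contrast was set beside that of VD mice in 1 limma fit on all 16 libraries, in which the interaction tests whether the DSS response differed between the delivery groups. Of 15233 genes 2015 passed (13.2%), 1017 with a more positive and 998 with a more negative response in CS mice. Among the 2015, both responses had 1 sign and were larger in CS mice for 1269, had 1 sign and were larger in VD mice for 130, and had opposite signs for 616. The count moved with the libraries. It was 742 without the 3 with prostate RNA, which left 2 DSS_CS libraries, and 1243 and 1322 without CON_CS replicate 3 or 4, 1126 and 1249 without DSS_CS replicate 2 or 3, 1095 without CON_VD replicate 3 and 1239 without DSS_VD replicate 2. Among the VD controls, replicate 1 stood apart in interferon-stimulated genes, with a list mean on the log2(FPKM + 1) scale of 4.50 beside 1.99 to 2.98 in the other 3, and was also highest in MHC class II (5.03 beside 3.55 to 3.71) and T and NK cell genes (1.30 beside 0.36 to 0.42). CON_VD replicate 4 stood apart in pancreas genes (3.79 beside 0.64 to 0.93).

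**Figure D5:**
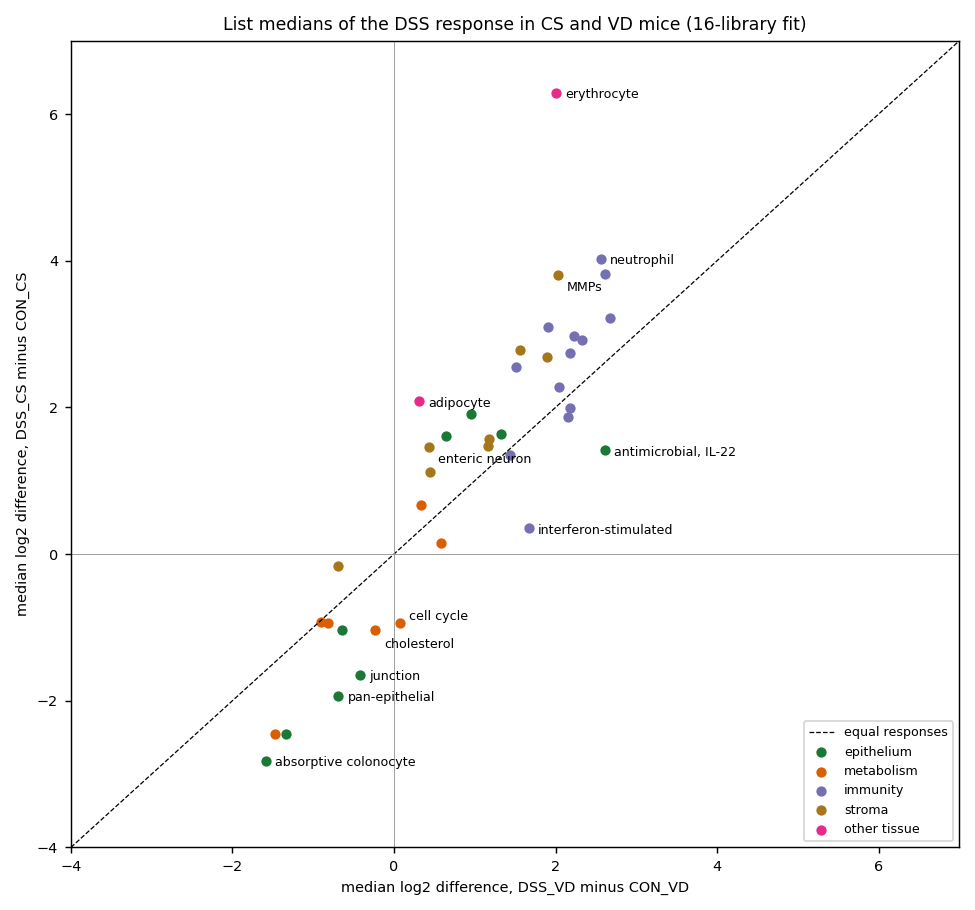
Median log2 difference of each list in the 16-library fit, in VD mice (DSS_VD minus CON_VD, x axis) and CS mice (DSS_CS minus CON_CS, y axis). Lists have at least 5 tested members, and only members that passed the filter in the 8 libraries of CS mice are used. Colours give the area of the list, and a dashed line marks equal responses. The erythrocyte median is 6.29 in CS and 2.01 in VD mice, the pan-epithelial median -1.93 and -0.69, and the interferon-stimulated median 0.35 and 1.67, or 2.17 without CON_VD replicate 1. Of the 20 interferon-stimulated genes 2 passed the interaction test, beside 13.2% of all genes, and 0 without the 3 libraries with prostate RNA.

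Epithelial lists differed in how many members passed the interaction test. List counts here and below cover only members that passed the filter in the 8 libraries of CS mice, so CS levels chose them. Of all 15233 genes 13.2% passed in either direction, 998 with a more negative and 1017 with a more positive response in CS mice. A more negative response in CS mice was found for 6 of 12 pan-epithelial genes, 10 of 18 junction genes, 2 of 14 goblet cell genes and 4 of 17 absorptive colonocyte genes, and a more positive one for none of these. Antimicrobial genes had 8 of 14 more negative and 4 more positive, and enteroendocrine genes 3 of 11 more positive and none more negative. Outside the epithelial lists, the response was more negative for 6 of 14 cholesterol synthesis genes and 6 of 15 cell cycle genes. With the 3 libraries with prostate RNA left out, the pan-epithelial, junction, cholesterol and cell cycle counts were 0, 2, 0 and 1 in limma's test. In that fit 208 of all 15233 genes were more negative and 534 more positive. The goblet cell and absorptive colonocyte counts were then 0 and 1, and antimicrobial genes had 3 more negative and 1 more positive. That fit kept only 2 DSS_CS libraries. At limma's unadjusted p under 0.05 its more negative counts were 8 pan-epithelial, 11 junction, 6 cholesterol and 11 cell cycle genes. The share of all genes at that limit was not counted, and why the adjusted counts dropped was not tested. Epcam was at 673 ± 59.3 FPKM in CON_VD and 467 ± 174 in DSS_VD, against 679.5 ± 46.4 and 176 ± 95.5 in CON_CS and DSS_CS (interaction -1.49 ± 0.42, adjusted p = 0.0329). The Epcam interaction did not pass without CON_CS replicate 2, 3 or 4 or CON_VD replicate 2 or 3 or DSS_CS replicate 2 or 3 or DSS_VD replicate 2 (adjusted p = 0.0513 to 0.0643), nor without the 3 libraries with prostate RNA (-1.45, adjusted p = 0.121), nor when genes were tested with no filter (adjusted p = 0.0821). Cldn8 was at 51.9 ± 7.57 and 35.05 ± 12.1 in VD mice and at 76.9 ± 10.98 and 8.91 ± 4.91 in CS mice (interaction -2.50 ± 0.44, adjusted p = 0.00777). Mki67 began at different levels, 11.8 ± 3.97 FPKM in CON_VD and 22.1 ± 5.17 in CON_CS, and reached 12.2 ± 2.73 and 7.87 ± 2.30 under DSS (interaction -1.47 ± 0.33, adjusted p = 0.0146).

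Enteric neuron genes had 7 of 8 members with a more positive response in CS mice, and 3 of the 8 met the filter through DSS_CS alone. Without the 3 libraries all 8 had it, but that fit kept DSS_CS replicates 1 and 2, the highest in this list. Their list means on the log2(FPKM + 1) scale were 2.80 and 3.26, beside 2.49 and 2.27 in replicates 3 and 4. Tubb3 rose by 2.63 in CS and differed by 0.64 in VD mice (interaction 1.99 ± 0.29, adjusted p = 0.00398). Of 12 neutrophil genes 6 had a more positive and 2 a more negative response, and of 13 metalloproteinase genes 5 a more positive one (3, 1 and 4 without the 3 libraries). In these 2 lists 10 and 6 tested members met the filter through DSS_CS alone. Csf3r had log2 differences of 4.72 and 3.07 in CS and VD mice (interaction 1.65 ± 0.27, adjusted p = 0.00694) and Lbp of 4.11 and 2.54 (interaction 1.57 ± 0.23, adjusted p = 0.00423). For Il22 the interaction did not pass (adjusted p = 0.0538), nor without the 3 libraries with prostate RNA (-0.91, adjusted p = 0.19). It did pass without DSS_VD replicate 1, 2 or 4 (-1.21 to -0.71, adjusted p = 0.0322 to 0.0438), and with median-of-ratios scaling (-1.06, adjusted p = 0.0352). Il22 was at 3.12, 2.67, 4.43 and 9.27 FPKM in DSS_VD, beside the DSS_CS values above, and at 0 in all 8 libraries of mice on water.

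By the naming rule the 5 largest positive interactions were Ang4, Cfd, Mptx1, Hbb-bt and Hba-a2, and for Ang4 and Mptx1 it was the groups on water that lay far apart. Ang4, an antibacterial angiogenin, was at 71.1, 1276, 479 and 194 FPKM in CON_VD but at 2.39, 0.691, 0.158 and 0.914 in CON_CS, and at 0.323, 0.358, 0.453 and 0 in DSS_VD and 0.117, 0.0881, 0.135 and 0.0881 in DSS_CS (interaction 7.13 ± 0.86, adjusted p = 0.00221). Mptx1, a mucosal pentraxin, was at 400.4 ± 313 in CON_VD and 6.49 ± 1.06 in CON_CS, and at 1.45 ± 0.229 and 1.38 ± 1.63 under DSS (interaction 4.98 ± 0.83, adjusted p = 0.00705). The interactions of Cfd, Hbb-bt and Hba-a2 were 5.68, 4.76 and 4.72 (adjusted p = 0.0237, 0.0119 and 0.0113). In VD mice Cfd was at 10.5, 0.214, 47.8 and 6.92 FPKM in CON_VD and at 0, 0, 12.6 and 1.91 in DSS_VD, a log2 difference of -1.77 beside 3.90 in CS mice. CON_VD replicate 3, highest in Cfd, was also highest of its group in the mean log2(FPKM + 1) of the adipocyte list, at 2.74 beside 1.08 to 1.61 in the other 3. Hbb-bt was at 69.5, 10.7, 21.5 and 22.3 FPKM in CON_VD and at 147, 101, 57.1 and 216 in DSS_VD. Without the 3 libraries with prostate RNA Cfd (4.996, adjusted p = 0.103) and Hbb-bt (3.54, adjusted p = 0.0501) did not pass, and the Cfd call also ended with no filter (adjusted p = 0.0607). The 5 largest negative ones were Clca4b, S100g, Trpv6, Dmbt1 and Abcg5. Dmbt1, a mucosal scavenger protein, fell in CS mice by 1.68 and had a log2 difference of 1.65 in VD mice, with means of 199 ± 34.6 in CON_VD and 637 ± 188 in DSS_VD (interaction -3.33 ± 0.42, adjusted p = 0.00221). Clca4b, of the chloride channel accessory family, had higher means under DSS in both, going from 38.4 ± 20.1 to 246 ± 118 FPKM in CS and from 6.28 ± 4.26 to 1061 ± 356 in VD mice (interaction -4.64 ± 0.70, adjusted p = 0.00473). The calcium-binding S100g was at 6.27 to 35.2 FPKM in CON_CS and 0 to 0.512 in DSS_CS and at 2.23, 3.73, 2.18 and 12.1 in the DSS_VD libraries (interaction -4.30 ± 0.77, adjusted p = 0.00818). The epithelial calcium channel Trpv6 was at 2.07 to 13.9 FPKM in CON_CS and 0.161 to 2.14 in DSS_CS and at 2.58, 9.38, 4.84 and 8.78 in the DSS_VD libraries (interaction -3.88 ± 0.74, adjusted p = 0.0103). The sterol transporter Abcg5 was at 6.01 to 19.1 FPKM in CON_CS and 0.387 to 3.30 in DSS_CS and at 7.08, 11.6, 5.77 and 7.20 in the DSS_VD libraries (interaction -3.29 ± 0.69, adjusted p = 0.0124). In the 16-library fit S100g, Trpv6 and Abcg5 had log2 differences of -3.64, -2.41 and -2.19 in CS mice and of 0.66, 1.47 and 1.10 in VD mice. The Trpv6 and Abcg5 interactions did not pass without the 3 libraries with prostate RNA (-3.35 and -3.19, adjusted p = 0.0537 and 0.0555).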

How the data were processed

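The deposited table gives FPKM per gene, computed by the authors. The labels name total RNA from colon and Illumina library preparation. The submitters' processing notes name cutadapt, FastQC and the build GRCm38, with the aligner and the counting tool not given in the sources used here. The table has 39328 Ensembl genes and 16 libraries, and every column was mapped to its sample by name. Gene names and coordinates came from GENCODE M21 on GRCm38.

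Genes with at least 1 FPKM in at least 4 of the 8 libraries were tested on log2(FPKM + 1), the pseudocount being 1, with limma 3.58.1 in R 4.3.3 (moderated test with trend, Benjamini-Hochberg adjustment over all tested genes, threshold 0.05). A log2 difference on this scale understates the change of low genes. The response in VD mice and the interaction came from 1 fit on all 16 libraries, on 15233 genes. List counts and medians from this fit use only members that passed the filter in the 8 libraries of CS mice. A value is given as mean ± SD over 4 libraries, or as each library's value in the order of replicates 1 to 4, and a fit as log2 difference ± SE. Among pairs of the 8 libraries at most 0.811% of the ratios of low genes shared 1 value, so whole reads could not be recovered and depth is unknown.

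The members and gene lists were chosen with earlier results of these data known, so lists are described by counts and medians only. Named genes were the 10 largest rises and falls with groups that did not overlap and a mean of at least 5 FPKM in the higher group, the 3 members of each list with the smallest p and its 2 defining members, Il22, Il17a, Il23r, Ifng and Tbx21, the 5 largest interactions each way (immunoglobulin and T cell receptor segments and predicted genes left out) and, chosen after their values were seen, the exceptions in each list. On simulated data 84% of genes changed by 1 and 93% of those changed by 2 on the log2 scale were recovered for the DSS response of CS mice, and 67% and 89% for the interaction. The simulation changed few genes, none of them low, and left the rest unchanged. Its shares therefore do not cover low genes or a response as wide as the one found. Alternatives were another pseudocount, no filter, median-of-ratios scaling, a 2-fold limit, a replicate block, leaving out each library, and leaving out the 3 libraries with prostate RNA; the interaction without these 3, and list medians in VD mice without CON_VD replicate 1, were added after the data were seen. Some genes taken by the naming rule are not reported here.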

Additional observations from a re-analysis of the deposited data

Results flagged for a closer look

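Of 442 groups of 4 libraries checked for 1 library far from the other 3 by Dixon's 95% criterion, 37 had one (8.37%), where chance alone gives about 1 in 20. In 7 of the 37 the other 3 libraries were at 0, so the criterion was met by construction, and 30 of the other 435 groups (6.9%) had a library apart. Among DSS_CS libraries, replicate 1 stood apart as the highest for Gsdmc3 (17.4 FPKM), Sycn (27.9), Cyp2c55 (8.76) and Trpv6 (2.14), genes that DSS lowered, and as the lowest for Ptges (25.6), Lox (29.1) and Ces1f (1.61). Replicate 2 was the lowest for Bcas1 (0.887 FPKM), Fcgbp (11), Il33 (41.6), Il1f9 (5.15) and Spink1 (51.6), and the highest for Stmn2 (6.87) and Ckm (2.08). Replicate 3 stood apart for Cdca7 (4.54), and replicate 4 for Col1a1 (170), Pck1 (4.45), Lct (0.11) and Svs1 (0.0451).

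Among CON_CS libraries, replicate 1 stood apart for the prostate gene Pbsn (185 FPKM) and for Mmp7 (10.3), Ltc4s (0.62), Sprr1a (3.94), Krt5 (0.779), Bnip3 (6.29), Hspa5 (173) and Lox (1.23). Replicate 2 did so for Vip (11.8), Abcg5 (19.1) and Cpa1 (0.0257). Replicate 3 was the highest for Chga (15.1) and Slc16a1 (61.9). Replicate 4 was the only control not listed at 0 for S100a9 (0.322), Reg3g (0.117), Svs1 (0.0267), Sis (0.0168) and Cxcl3 (0.0135).

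Among named genes whose interaction is given above, limma's interaction test found different DSS responses in CS and VD mice for 16. Other named genes were not checked here and can also differ, such as Hba-a1, since all 5 tested erythrocyte genes passed that test. Of the 16, the response was more positive in CS mice, on the log2 scale, for Ang4 (7.13), Cfd (5.68), Mptx1 (4.98), Hbb-bt (4.76), Hba-a2 (4.72), Tubb3 (1.99), Csf3r (1.65) and Lbp (1.57). It was more negative for Clca4b (-4.64), S100g (-4.30), Trpv6 (-3.88), Dmbt1 (-3.33), Abcg5 (-3.29), Cldn8 (-2.50), Epcam (-1.49) and Mki67 (-1.47). These 16 genes were chosen partly for the size of this difference.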

How the results depend on the processing

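Depth is unknown, so the precision of low values cannot be given, and 4 libraries per group limit the interaction more than the response itself. The counts for the DSS response of CS mice stayed within 1.5 times of 8666 under another pseudocount, no filter, median-of-ratios scaling and 1 fit on 16 libraries. A 2-fold limit, which adds a condition, left 3728 genes, 2352 higher and 1376 lower. Leaving out 1 library at a time, with the same genes tested, gave 7989 to 8574 genes, 4578 to 4860 higher and 3364 to 3714 lower.

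The interaction count of 2015 was less stable. It was 1042 (578 more positive and 464 more negative in CS mice) with no filter, which tests more genes, 821 (255 and 566) with a 2-fold limit, and 742 (534 and 208) without the 3 libraries with prostate RNA, which leaves fewer libraries. With 1 library left out it was 1095 to 2570, with 546 to 1210 more positive and 549 to 1360 more negative.

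A fit with the replicate number as a block gave 4708 higher and 3539 lower genes for the DSS response of CS mice and an interaction count of 1520. Of the named genes, Tnfaip3 (adjusted p = 0.00276) and Aqp4 (0.0112) passed with the block and the Epcam interaction (0.0504) did not. Deviations of libraries with the same number correlated at -0.095 to 0.083, and 1 of 4 DSS_CS libraries correlated best with its own number, so the numbers are not taken to pair the libraries.

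Without the 3 libraries with prostate RNA 0 smooth muscle genes were lower. The genes whose log2 difference changed sign were all without a call. With median-of-ratios scaling these were Ifit1 (-0.012), Insl5 (-0.011) and Mcm2 (-0.10), and without the 3 libraries with prostate RNA Acta2 (0.045), Insl5 (-0.24) and Mcm2 (-0.061). With 1 library left out the value ranged from -0.24 to 0.23 for Hk2, from -0.18 to 0.016 for Pcna, from -0.16 to 2.02 for Retnlb, from -0.30 to 0.44 for Ifit1, from -0.17 to 0.15 for Mcm2, from -0.38 to 0.098 for Ccl20 and from -0.062 to 0.26 for Insl5. The cause was not tested.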
